A study of Mus musculus with 4 samples.

Results

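Rab GTPases are small membrane switches that give each vesicle and organelle its address. The genes described here are those whose symbol is Rab followed by a number and at most 1 letter in the platform annotation, leaving out Rab26 and Rab3d, and they were read in 4 arrays of laser-captured cells of the adult mouse stomach. The rule found 57 genes on 60 probe sets, of 19938 genes on 21789 probe sets that the annotation ties to a single gene. The 4 arrays held zymogenic (chief) cells of MIST1 knockout mice, zymogenic cells of wild-type mice, mucous neck cells of MIST1 knockout mice and mucous neck cells of wild-type mice, all with a C57BL/6 strain background and with no treatment named. MIST1, the product of Bhlha15, is a transcription factor known from secretory cells, and the knockout mice are called MIST1-null below. Each group was 1 array of RNA pooled over several dissections and several mice, so no difference has a replicate check, and differences between 2 arrays are given as values without a p-value. The design text names 5 MIST1-null and 4 wild-type mice with 2 caps of dissected cells per mouse, and the sources used here do not say which of them entered which pool, the age of the mice beyond adult or the kind of null allele.

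A Rab protein bound to GTP sits on a membrane and recruits effectors, such as tethers and motors, and after GTP is cleaved a dissociation inhibitor takes the protein back to the cytosol. Exchange factors load GTP, activating proteins speed its cleavage, and a lipid anchor is added at the C-terminal end by a geranylgeranyl transferase with the help of an escort protein. Zymogenic cells store digestive enzymes in large granules and neck cells store mucus, and granule release in such cells is known to use members of the Rab3 and Rab27 branches. Earlier work on MIST1 in secretory cells named Rab26 and Rab3d as targets, and these are not covered here.

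Levels are probe set intensities on a linear scale, and differences are log2 values, MIST1-null minus wild-type or zymogenic minus neck, so a difference of 1 is 2-fold. A gene counted as detectable in a comparison where at least 1 of its 2 values was 43.7 or more. This level is the median over all probe sets with a single gene and was not measured as a background. Of the 57 Rab genes, 47 reached it in at least 1 array and 10 in none. Intensities of different probe sets cannot be ranked as RNA amounts, so each gene is compared with itself across arrays.

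The labelled cell types and genotypes were checked on their own genes. Bhlha15 read 22.0 in MIST1-null zymogenic and 149.8 in wild-type zymogenic cells, and 20.2 in MIST1-null neck and 59.7 in wild-type neck cells. The sources used here do not say whether its probes lie within the deleted stretch. All 5 zymogenic markers were higher in zymogenic than neck cells in both genotypes, with medians of 2.18 in MIST1-null and 1.52 in wild-type mice. Of 6 mucous neck markers, 5 were lower in zymogenic cells in both genotypes, and Aqp5 was not. All 6 neck markers were lower in MIST1-null than wild-type zymogenic cells. Their median was -0.46, their sums were 689 in MIST1-null and 1839 in wild-type zymogenic cells, and Tff2 read 277 in MIST1-null and 1320.4 in wild-type zymogenic cells. In neck cells these sums were 11845 in MIST1-null and 9616 in wild-type mice. Markers of other cells moved with the groups. Summed endocrine markers were 12969 in MIST1-null and 8879 in wild-type zymogenic cells, against 3782 in MIST1-null and 5853 in wild-type neck cells. Summed parietal markers were 8047, 4456 and 8911 in MIST1-null zymogenic, wild-type zymogenic and MIST1-null neck cells, and 8288 in wild-type neck cells. The lowest sum was that of wild-type zymogenic cells. Fibroblast and smooth muscle markers summed to 1118 and 1011 in MIST1-null and wild-type zymogenic cells, against 259 and 411 in MIST1-null and wild-type neck cells. Immune markers summed to 275 and 319 in MIST1-null and wild-type zymogenic cells, and to 73.2 and 221 in MIST1-null and wild-type neck cells. Surface mucous markers summed to 3464 and 3347 in MIST1-null and wild-type zymogenic cells, against 1944 and 2108 in MIST1-null and wild-type neck cells. Endothelial markers summed to 183 and 206 in MIST1-null and wild-type zymogenic cells, and to 150.1 and 160.1 in MIST1-null and wild-type neck cells. The part of these markers in the Rab values was not tested. None of the measured markers stood at the intensity floor in all arrays, but Des and Laptm5 were under the detection level in every array. Des belongs to the fibroblast and smooth muscle list and Laptm5 to the immune list, of which Igj was not measured.

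The Rab genes did not move as a block in any comparison. Between genotypes in zymogenic cells, 3 of 42 detectable Rab genes differed at least 2-fold, where 10.5% of 11827 detectable genes did. Rab39b was higher (5.17% of all detectable genes were), and Rab23 and Rab27a were lower (5.28%). In neck cells 3 of 42 passed, where 4.3% of 10965 did: Rab17 was higher in MIST1-null cells (1.91%), and Rab12 and Rab23 were lower (2.4%). Between cell types, 7 of 44 passed in wild-type mice, where 13.1% of 11778 did, and 7 of 44 in MIST1-null mice, where 9.74% of 11323 did. In MIST1-null mice Rab3c and Rab39b were higher in zymogenic cells (4.93% of all detectable genes), and Rab4a, Rab11b, Rab27a, Rab27b and Rab38 were lower (4.81%). In wild-type mice Rab3c, Rab17 and Rab30 were higher (6.33%), and Rab8a, Rab11b, Rab12 and Rab38 were lower (6.8%). These shares of Rab genes, 7.14% for each genotype comparison and 15.9% for each cell type comparison, rest on few genes and lie within several percentage points of those of all genes.

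Over all 57 Rab genes with no filter, the median difference between MIST1-null and wild-type was 0.02 in zymogenic cells, where all genes had -0.01, and -0.01 in neck cells, where all genes had -0.03. Zymogenic minus neck it was 0.06 in MIST1-null and 0.03 in wild-type mice, where all genes had 0.05 in each. The median size of a difference, without its sign, was 0.39 for Rab genes and 0.38 for all genes between genotypes in zymogenic cells, and 0.29 and 0.28 in neck cells. Between cell types it was 0.25 for Rab genes and 0.33 for all genes in MIST1-null mice, and 0.32 and 0.38 in wild-type mice. Of the 47 Rab genes detectable in some array, 12 reached 2-fold in at least 1 comparison, or 25.5%, where 23.2% of 12937 such genes did. With no filter, 25 of the 57 stayed under 1.5-fold in all 4 comparisons, or 43.9%, where 40.5% of all genes did.

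**Figure D1:**
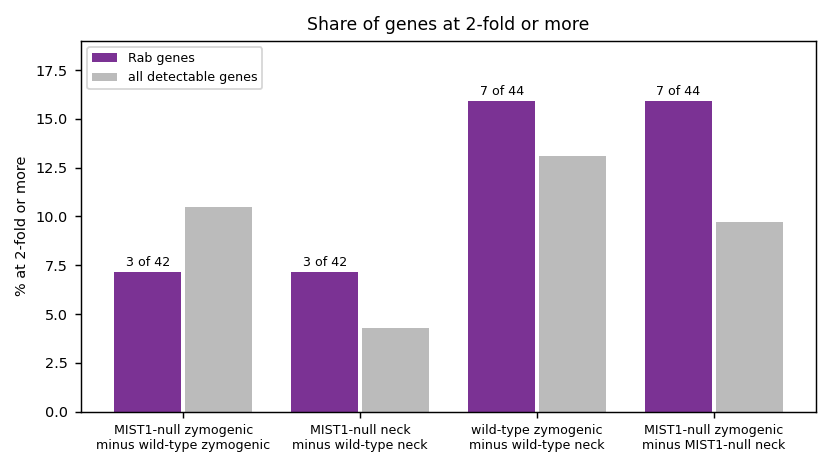
Percent of detectable genes at 2-fold or more between 2 arrays, for Rab genes (purple, with counts) and all genes (grey). Rab genes lie at 7.14% in both genotype comparisons and at 15.9% in both cell type comparisons, against 10.5%, 4.3%, 13.1% and 9.74% of all genes.

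**Figure D2:**
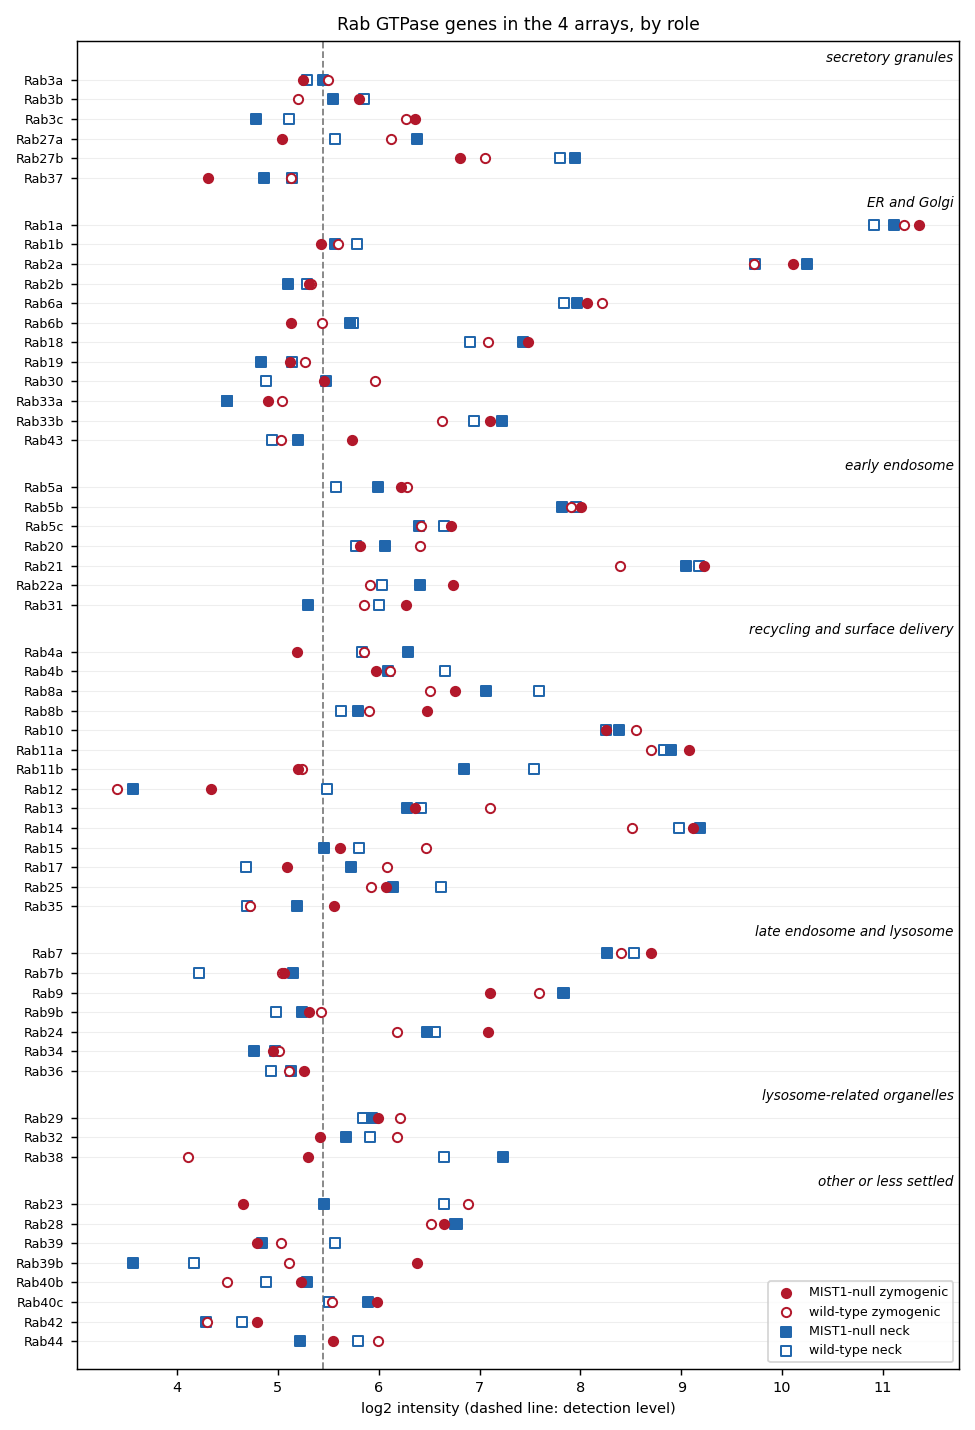
Intensity (log2) of the 57 Rab genes in the 4 arrays, grouped by role, with 1 point per array; circles are zymogenic and squares neck cells, and filled points are MIST1-null. The dashed line is the detection level, which 10 genes stay under in every array, and circles and squares stand well apart for Rab38, Rab11b and Rab3c.

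Granule Rabs did not share a pattern across the arrays. Rab27b, which docks granules at the plasma membrane, read 112 in MIST1-null zymogenic and 132 in wild-type zymogenic cells, against 246 in MIST1-null neck and 223 in wild-type neck cells. Both neck arrays lay above both zymogenic arrays, with zymogenic minus neck differences of -1.13 in MIST1-null and -0.75 in wild-type mice, and the genotypes lay within 0.24 of each other in either cell type. The 2-fold size in MIST1-null mice was -0.95 with a pseudocount of 32.

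Rab27a, its close relative and best known from the transport of melanosomes and lytic granules, had another pattern. It read 32.9 in MIST1-null and 69.8 in wild-type zymogenic cells, a difference of -1.08, and 83.1 in MIST1-null and 47.3 in wild-type neck cells, a difference of 0.81. The genotype difference thus had opposite signs in the 2 cell types, and was apart by -1.90 between them, zymogenic minus neck. MIST1-null neck cells had the highest and MIST1-null zymogenic cells the lowest value, which gave -1.34 for zymogenic minus neck in MIST1-null and 0.56 in wild-type mice. Neck markers, Tff2 among them, were also lower in MIST1-null than wild-type zymogenic cells. Their medians had the sign of the Rab27a difference between genotypes in neck cells (0.28) and between cell types in MIST1-null mice (-3.94). In wild-type mice these markers were lower in zymogenic than neck cells, with a median of -2.94, where Rab27a was higher by 0.56. Their part in the Rab27a values was not tested. With the pseudocount the Rab27a differences in zymogenic cells between genotypes and in MIST1-null mice between cell types were -0.65 and -0.83, under 2-fold.

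Rab3c, of the branch that serves regulated release in neurons and endocrine cells, read 82.3 in MIST1-null and 77.0 in wild-type zymogenic cells, against 27.5 in MIST1-null and 34.5 in wild-type neck cells. Both zymogenic arrays were above both neck arrays, by 1.58 in MIST1-null and 1.16 in wild-type mice, and the genotype difference was 0.10 in zymogenic cells. Both neck values are under the detection level, and with the pseudocount the differences were 0.94 and 0.71. Endocrine markers ran the same way, with 6 of 7 higher in zymogenic cells in MIST1-null and 7 of 7 in wild-type mice. Fibroblast and smooth muscle markers had the same counts. All 4 surface mucous and all 5 zymogenic markers were higher in zymogenic cells in both genotypes, and immune and endothelial markers mostly so. Mucous neck markers were mostly lower in both genotypes, and parietal markers were lower in wild-type mice. The part of any of these markers in the Rab3c values was not tested. In such pooled samples, fewer cells of a type and less RNA per cell cannot be told apart.

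The other granule members stayed under 2-fold. Rab3b read 56.0 in MIST1-null and 36.6 in wild-type zymogenic cells, and 46.6 in MIST1-null and 58.0 in wild-type neck cells, with the wild-type zymogenic array lowest. Rab3a, the neuronal form, stood at 38.1 and 45.0 in MIST1-null and wild-type zymogenic cells and at 43.6 and 39.1 in MIST1-null and wild-type neck cells, close to the detection level throughout. Rab37 was under it in every array, at 19.9 and 34.9 in MIST1-null and wild-type zymogenic cells and at 29.0 and 35.2 in MIST1-null and wild-type neck cells. The Rab3 and Rab27 relatives therefore had no shared direction: between genotypes in zymogenic cells 2 of the 6 granule members were above 0, and 3 of 6 in neck cells.

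**Figure D3:**
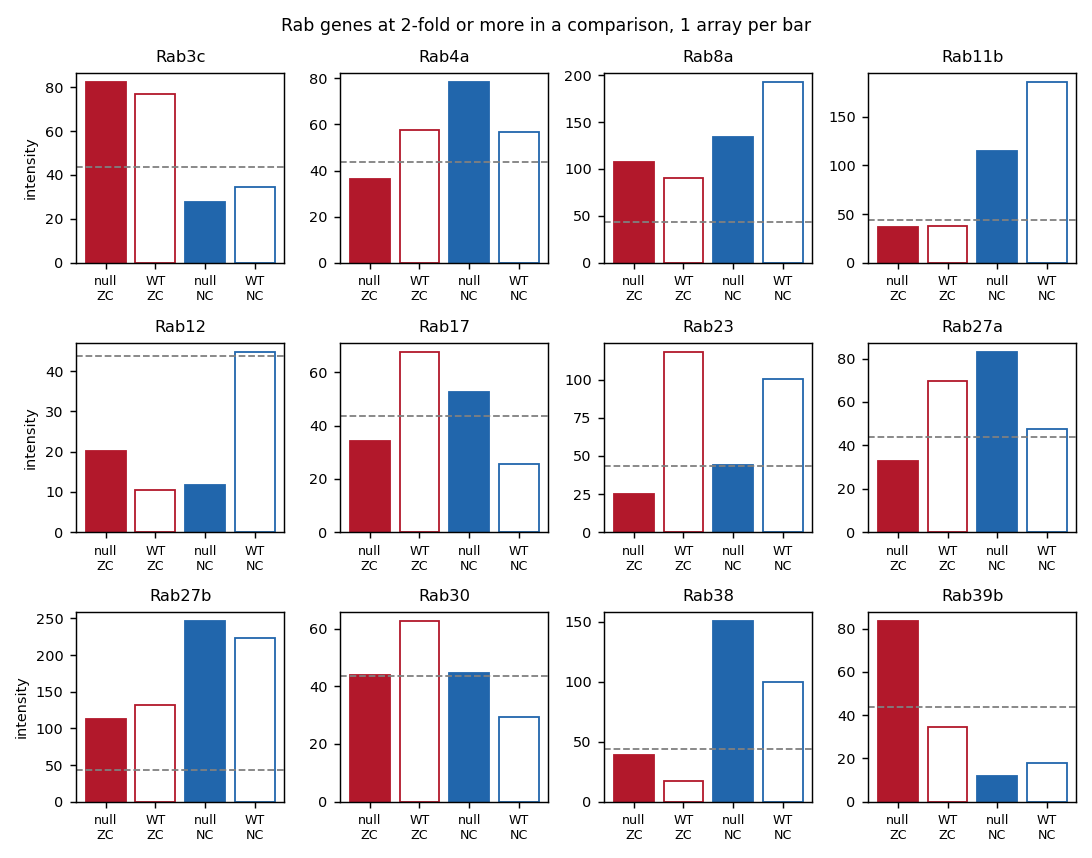
Intensity of the 12 Rab genes that reached 2-fold in a comparison, with 1 bar per array (ZC zymogenic, NC neck, null MIST1-null, WT wild-type), axes starting at 0 and the detection level dashed. Rab38, Rab11b and Rab27b are high in both neck arrays, Rab3c in both zymogenic arrays, Rab23 is low in both MIST1-null arrays, and Rab12 and Rab39b are high in 1 array each.

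The upstream sequence of 3 genes is shown because MIST1, a basic helix-loop-helix factor, binds E-box sequences. These genes had genotype differences near or past 2-fold, in the same direction in both cell types for Rab23 and in opposite directions for Rab27a and Rab17. Rab12 and Rab39b also passed 2-fold between genotypes in 1 cell type each, and their sequences are not shown. The E-boxes searched were CATATG and CAGCTG, each of which reads the same on both strands, and they do not overlap each other. RefSeq promoter windows of assembly GRCm38.p6, from 250 bases before to 50 after a start, were matched by symbol for 47 of the 57 Rab genes, on 59 windows. CATATG was found in 1 of these 59 windows, a start of Rab27a, and in 3.91% of all 32851 windows. CAGCTG was found in 14 windows, or 23.7%, and in 16.3% of all windows. Of the Rab genes with CAGCTG, only Rab27a reached 2-fold between genotypes in zymogenic cells, where 10.5% of all detectable genes did. In neck cells only Rab17 did, beside 4.3% of all detectable genes. A link between these words and the differences was not tested. Rab3c, with CAGCTG at -108 relative to its start, differed between genotypes by 0.10 in zymogenic and -0.32 in neck cells. The window of Rab27a with CATATG also held CAGCTG, which was so for 0.435% of all windows. The first base of CATATG lay at -26 and that of CAGCTG at -15 relative to that start. The 250 bases before the start are given 5′ to 3′ with CATATG and CAGCTG in capitals. Other E-boxes were not searched for and stand in lower case where present. The stretches are those of Rab27a at chr9:73063898-73064147 on the plus strand, Rab17 at chr1:90967668-90967917 on the minus strand and Rab23 at chr1:33719646-33719895 on the plus strand.
Rab27a: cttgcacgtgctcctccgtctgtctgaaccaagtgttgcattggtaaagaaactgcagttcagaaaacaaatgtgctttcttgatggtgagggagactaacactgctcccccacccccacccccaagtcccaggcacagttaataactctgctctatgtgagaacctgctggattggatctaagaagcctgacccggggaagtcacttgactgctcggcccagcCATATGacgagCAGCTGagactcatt
Rab17: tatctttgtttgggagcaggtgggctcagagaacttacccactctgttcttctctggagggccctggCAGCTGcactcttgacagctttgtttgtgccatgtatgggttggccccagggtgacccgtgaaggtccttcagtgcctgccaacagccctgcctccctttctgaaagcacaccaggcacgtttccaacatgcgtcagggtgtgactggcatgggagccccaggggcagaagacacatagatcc
Rab23: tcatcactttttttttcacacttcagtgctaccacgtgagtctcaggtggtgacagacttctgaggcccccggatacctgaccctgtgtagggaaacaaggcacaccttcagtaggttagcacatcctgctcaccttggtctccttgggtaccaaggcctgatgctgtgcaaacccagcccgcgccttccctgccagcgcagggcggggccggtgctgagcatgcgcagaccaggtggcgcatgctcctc
Rab17 held a single CAGCTG, at -183, and neither word was found in the stretch of Rab23. Another start of Rab27a and another of Rab23 in the table also held neither in the 250 bases before them. A match describes the letters and is not a site that was measured, and no match says only that these letters are not in the window.

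Rab23, a negative regulator of Hedgehog signalling, was the Rab gene with a 2-fold difference between genotypes in both cell types. It read 25.1 in MIST1-null and 118 in wild-type zymogenic cells, a difference of -2.24. In neck cells it read 44.0 in MIST1-null and 100.4 in wild-type mice, a difference of -1.19. Both MIST1-null arrays lay under both wild-type arrays. The arrays of these 2 comparisons are separate, but the zymogenic and neck pools of a genotype may hold the same mice. The neck markers that were lower in MIST1-null zymogenic cells had a median of 0.28 between genotypes in neck cells. There, fibroblast and smooth muscle, immune and endocrine markers had medians of -0.88, -0.69 and -0.67. The medians of zymogenic and endothelial markers were -0.16 and -0.1, and those of parietal and surface mucous markers 0.03 and 0.05. In zymogenic cells fibroblast and smooth muscle, immune and endocrine markers had -0.11, 0.04 and 0.38. The part of any of these markers in the Rab23 values was not tested. With the pseudocount the Rab23 differences were -1.40 and -0.80, so the neck value was then under 2-fold. Between cell types Rab23 differed by -0.81 in MIST1-null and 0.24 in wild-type mice.

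Across all 57 genes, the genotype differences of the 2 cell types had the same sign in 30, or 52.6%, where all 19938 genes had 53.8%. Pearson's r over the 57 genes was 0.02, where all genes had 0.12, as a description of genes that share 4 arrays and are not replicates. The genotype differences of Rab17 and Rab12 were also large in neck cells, but each with another sign in zymogenic cells. Rab17, an epithelial Rab of transcytosis and recycling, read 34.1 in MIST1-null and 67.7 in wild-type zymogenic cells, and 52.7 in MIST1-null and 25.7 in wild-type neck cells. Its values for MIST1-null minus wild-type came to -0.99 among zymogenic and 1.04 among neck cells, with the wild-type arrays as its highest and lowest. It differed by -0.63 between zymogenic and neck cells in MIST1-null and by 1.40 in wild-type mice, and with the pseudocount the neck genotype value and this wild-type value were 0.55 and 0.79. Rab12, which acts between recycling endosomes and lysosomes, read 20.2 and 10.6 in MIST1-null and wild-type zymogenic cells, and 11.8 and 44.8 in MIST1-null and wild-type neck cells. Only the wild-type neck value reached the detection level, by a narrow margin, and its differences of -1.92 between genotypes and -2.08 between cell types were -0.81 and -0.85 with the pseudocount.

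**Figure D4:**
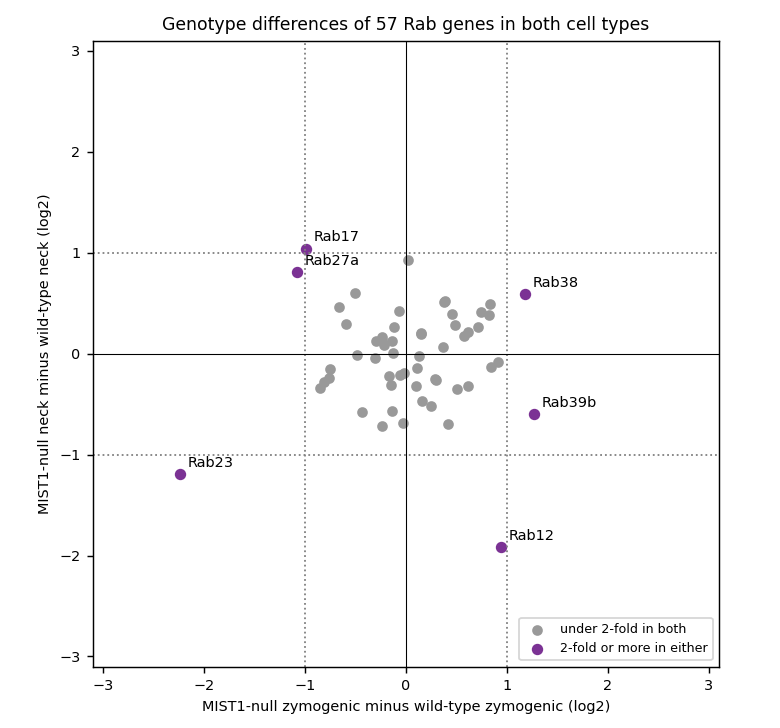
Log2 difference of MIST1-null minus wild-type for each of the 57 Rab genes, in zymogenic cells (horizontal) and neck cells (vertical), with dotted lines at 2-fold; purple genes pass it on either axis, whatever their level. Rab23 lies at -2.24 and -1.19, Rab17 and Rab27a lie in the upper left corner, and Rab38 has both of its zymogenic values under the detection level.

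Rab39b, linked in humans to X-linked intellectual disability and best known from neurons, was high in a single array. It read 83.3 in MIST1-null and 34.5 in wild-type zymogenic cells, and 11.8 in MIST1-null and 18.0 in wild-type neck cells. It differed by 1.27 between genotypes in zymogenic cells and by 2.81 between zymogenic and neck cells in MIST1-null mice, and these were 0.80 and 1.40 with the pseudocount. Summed endocrine markers were also highest in MIST1-null zymogenic cells, as were the sums of zymogenic, surface mucous, and fibroblast and smooth muscle markers. The sums of mucous neck, parietal, immune and endothelial markers were highest in other arrays. The part of any of these markers in the Rab39b values was not tested. Its relative Rab39 read 27.7 and 32.6 in MIST1-null and wild-type zymogenic cells, and 28.7 and 47.2 in MIST1-null and wild-type neck cells.

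Between cell types, Rab38 had the lowest difference of all 57 genes in both genotypes. Rab38 serves melanosomes and the lamellar bodies of lung, both lysosome-related organelles. It read 39.3 in MIST1-null zymogenic and 17.3 in wild-type zymogenic cells, against 151 in MIST1-null neck and 100.2 in wild-type neck cells. Both neck arrays were above the detection level and both zymogenic arrays under it, with differences of -1.94 in MIST1-null and -2.53 in wild-type mice, and -1.36 and -1.42 with the pseudocount. Rab32, which shares its work in pigment cells, did not follow this pattern, at 42.8 and 72.3 in MIST1-null and wild-type zymogenic cells and at 51.0 and 60.1 in MIST1-null and wild-type neck cells. Rab29, of the same branch, stayed between 57.3 and 73.8 in the 4 arrays.

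Among recycling and surface delivery genes, Rab11b, a Rab of recycling endosomes, depended on the probe set. The brighter probe set read 36.8 in MIST1-null and 37.6 in wild-type zymogenic cells, against 115 in MIST1-null and 186 in wild-type neck cells, which gave -1.64 and -2.30 for zymogenic minus neck in MIST1-null and wild-type mice. The dimmer one read 62.6 in MIST1-null and 28.7 in wild-type zymogenic cells, and 67.3 in MIST1-null and 37.8 in wild-type neck cells. By it, the cell types differed by -0.10 in MIST1-null and -0.40 in wild-type mice and the genotypes by 1.13 in zymogenic and 0.83 in neck cells. Which of these probe sets reports Rab11b was not settled here, so neither pattern is firm. Rab2a and Rab5b also had 2 probe sets each. Those of Rab5b differed by at most 0.03 in any comparison, while those of Rab2a gave 0.51 and -0.38 between genotypes in neck cells.

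Rab11a, which carries recycling endosomes to the apical surface and sits on the acid-secreting membranes of parietal cells, was steady. It read 538 and 417 in MIST1-null and wild-type zymogenic cells, and 478 and 455 in MIST1-null and wild-type neck cells. Rab25, its epithelial relative, lay between 60.5 and 98.1. Rab8a, which delivers cargo to the apical surface and the cilium, read 108 in MIST1-null and 90.8 in wild-type zymogenic cells, against 134 in MIST1-null and 193 in wild-type neck cells. It was lower in zymogenic cells of both genotypes, by -0.31 in MIST1-null and -1.09 in wild-type mice, and the wild-type value was -0.87 with the pseudocount. Rab8b, with related work, ran the other way, with 0.68 in MIST1-null and 0.28 in wild-type mice. Rab4a, of fast recycling from early endosomes, read 36.4 in MIST1-null and 57.6 in wild-type zymogenic cells, and 78.3 in MIST1-null and 56.9 in wild-type neck cells. The wild-type arrays were alike and the MIST1-null arrays differed by -1.10, or -0.69 with the pseudocount.

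Other genes of recycling and delivery stayed under 2-fold. Rab14, between the Golgi and endosomes, read 554 in MIST1-null and 364 in wild-type zymogenic cells, and 582 in MIST1-null and 504 in wild-type neck cells. Rab10, known from the delivery of glucose carriers, read 305 and 375 in MIST1-null and wild-type zymogenic cells, and 335 and 305 in MIST1-null and wild-type neck cells. Rab13, a Rab of tight junction traffic, read 81.9 in MIST1-null and 137 in wild-type zymogenic cells, and Rab15 read 49.1 in MIST1-null and 88.7 in wild-type zymogenic cells. Both were highest in the wild-type zymogenic array. Rab35 and Rab4b ranged from 25.9 to 47.0 and from 62.9 to 101. Of the 14 genes in this group, 7 were above 0 between genotypes in each cell type.

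**Figure D5:**
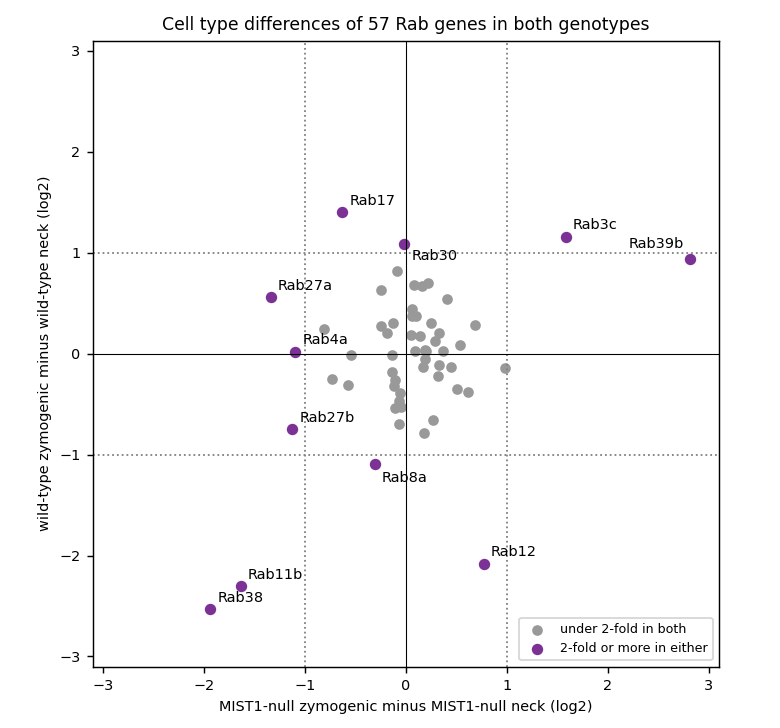
Log2 difference of zymogenic minus neck cells for each of the 57 Rab genes, in MIST1-null mice (horizontal) and wild-type mice (vertical), with dotted lines at 2-fold; purple genes pass it on either axis, whatever their level. Rab38 and Rab11b lie at the lower left in both, Rab3c and Rab39b at the right, and Rab17, Rab30, Rab8a and Rab12 pass 2-fold on the vertical axis and not on the horizontal one.

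The cell type differences of the 2 genotypes, which share no array, had the same sign in 36 of 57 Rab genes, or 63.2%, where all genes had 57.1%. Of these, 20 were higher in zymogenic cells in both genotypes and 16 were lower in both. Pearson's r over the 57 genes was 0.39, where all genes had 0.33. Rab38, Rab11b by its brighter probe set and Rab3c were at 2-fold or more in both genotypes.

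Of the ER and Golgi Rabs, which run the early secretory pathway, Rab30 alone reached 2-fold, in 1 comparison. Rab1a, for transport from the ER to the Golgi, read 2628 in MIST1-null and 2362 in wild-type zymogenic cells, against 2204 in MIST1-null and 1920.0 in wild-type neck cells. Zymogenic cells were above neck cells by 0.25 in MIST1-null and 0.30 in wild-type mice. Rab2a, of the same step, read 1101 and 844 in MIST1-null and wild-type zymogenic cells, and 1213 and 849 in MIST1-null and wild-type neck cells, so both MIST1-null arrays were above both wild-type arrays on its brighter probe set. Its dimmer probe set did not keep this order. Rab6a, of traffic within and out of the Golgi, read 268 and 296 in MIST1-null and wild-type zymogenic cells, and 251 and 229 in MIST1-null and wild-type neck cells.

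Rab18, of the ER and lipid droplets, read 178 and 136 in MIST1-null and wild-type zymogenic cells, and 172 and 120.0 in MIST1-null and wild-type neck cells. Both MIST1-null arrays were above both wild-type arrays, by 0.39 in zymogenic and 0.52 in neck cells, sizes under 1.5-fold. Rab33b, a Golgi Rab that also serves autophagy, had the same order, at 137 and 98.6 in MIST1-null and wild-type zymogenic cells and at 149 and 123 in MIST1-null and wild-type neck cells. Rab30, of the Golgi, read 44.0 and 62.5 in MIST1-null and wild-type zymogenic cells, and 44.5 and 29.4 in MIST1-null and wild-type neck cells. The wild-type arrays were its highest and lowest, which gave 1.09 for zymogenic minus neck in wild-type mice, or 0.62 with the pseudocount, where MIST1-null mice had -0.02. Rab1b, Rab2b, Rab6b, Rab19, Rab33a and Rab43 lay between 22.5 and 55.0 in all arrays and stayed under 2-fold. Of the 12 genes of this group, 5 were above 0 between genotypes in zymogenic cells and 8 in neck cells.

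Early endosome Rabs stayed under 2-fold in every comparison. Rab21, which handles integrins at early endosomes, read 599.5 in MIST1-null and 335 in wild-type zymogenic cells, and 530.2 in MIST1-null and 579 in wild-type neck cells. The wild-type zymogenic array stood below the other 3, with differences of 0.84 from MIST1-null zymogenic cells and -0.79 from wild-type neck cells, which share that array. Parietal markers had the same low array, with 8 of 8 higher in MIST1-null than wild-type zymogenic cells and 8 of 8 lower in wild-type zymogenic than wild-type neck cells, and their part in the Rab21 values was not tested. Rab22a, of endosome sorting, was higher in MIST1-null cells of both types, by 0.82 in zymogenic and 0.38 in neck cells. Among the Rab5 genes, which form the core of early endosomes, Rab5b stayed between 226 and 258, Rab5c between 84.1 and 105 and Rab5a between 47.8 and 77.8. Rab31 and Rab20 ranged from 39.3 to 77.4 and from 54.8 to 85.1.

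Late endosome and lysosome Rabs were also under 2-fold throughout. Rab7, which drives late endosomes to lysosomes, read 416 and 337 in MIST1-null and wild-type zymogenic cells, and 308 and 369 in MIST1-null and wild-type neck cells. Rab9, of return transport from late endosomes to the Golgi, read 137 and 193 in MIST1-null and wild-type zymogenic cells, against 228 and 229 in MIST1-null and wild-type neck cells, lower in zymogenic cells by -0.73 in MIST1-null and -0.25 in wild-type mice. Rab24, an atypical Rab of autophagy, was highest in MIST1-null zymogenic cells at 136, against 72.3 in wild-type zymogenic cells, a difference of 0.91, and read 89.2 and 94.2 in MIST1-null and wild-type neck cells. Rab7b, Rab9b, Rab34 and Rab36 reached the detection level in none of the arrays. Of the remaining genes, Rab28 lay between 91.5 and 109.9, Rab40c between 45.4 and 63.4 and Rab44 between 37.1 and 63.5, while Rab40b and Rab42 did not reach the detection level.

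Genes that act on Rab proteins were read as lists. The lists held 121 symbols, with Rbsn also under its former symbol Zfyve20, and 115 of them were measured. In zymogenic cells 0 of 91 detectable ones were at least 2-fold higher and 6 lower in MIST1-null than wild-type mice. In neck cells 3 of 84 were higher and 0 lower. Between cell types, 2 of 85 were higher and 2 lower in MIST1-null zymogenic than neck cells, and 4 of 92 were higher and 4 lower in wild-type mice. These counts stand beside 5.17% higher and 5.28% lower of all detectable genes between genotypes in zymogenic cells and 1.91% and 2.4% in neck cells, and with the cell types 4.93% and 4.81% in MIST1-null and 6.33% and 6.8% in wild-type mice. The 7 measured genes of lipid attachment and recycling to the cytosol stayed under 2-fold in all 4 comparisons.

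Sytl2, a Rab27 effector, read 21.0 in MIST1-null and 20.5 in wild-type zymogenic cells, against 103 in MIST1-null and 93.7 in wild-type neck cells. Both neck arrays were above both zymogenic arrays, as for Rab27b, with differences of -2.29 in MIST1-null and -2.19 in wild-type mice. Gcc2, a golgin of the trans-Golgi, was lower in zymogenic cells too, at 128 and 211 in MIST1-null and wild-type zymogenic against 451 and 373 in MIST1-null and wild-type neck cells, with -1.82 in MIST1-null and -0.82 in wild-type mice. Rab11fip2, which binds Rab11, differed by -0.10 in MIST1-null and -1.40 in wild-type mice, and Rab11fip4 by 1.24 and 0.51. Rims2, a Rab3 effector of release sites, differed by 1.53 in MIST1-null and 0.20 in wild-type mice. It read 44.7 in MIST1-null zymogenic cells, just over the detection level. Its other values were under that level, at 23.75 in wild-type zymogenic, 15.5 in MIST1-null neck and 20.7 in wild-type neck cells. Tbc1d4, an activating protein of glucose carrier traffic, differed by -0.80 and -1.42 in MIST1-null and wild-type mice. Pseudocount values are not given for the regulators, so differences with a value under the detection level are not firm in size.

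For several regulators the wild-type zymogenic array stood apart. Dennd1a, an exchange factor for Rab35, read 28.7 in MIST1-null and 136 in wild-type zymogenic cells, and 51.1 in MIST1-null and 23.1 in wild-type neck cells. Between genotypes it differed by -2.25 among zymogenic and by 1.15 among neck cells, with opposite signs. Dennd5b differed by -1.81, Tbc1d30 by -1.42 and Tbc1d7, also a subunit of the TSC complex, by -1.11 between genotypes in zymogenic cells. Each of these 3 was highest in wild-type zymogenic cells, so the genotype and the cell type comparison share that high array. Dennd5b, Tbc1d30 and Tbc1d7 read 73.4, 57.2 and 56.4 there, and all were under the detection level in the other arrays. Rab3ip, an exchange factor for Rab8, was lowest there, with 148 in MIST1-null and 75.9 in wild-type zymogenic cells, and 136 in MIST1-null and 182 in wild-type neck cells.

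Rbsn, a partner of Rab4 and Rab5, read 58.2 in MIST1-null and 135 in wild-type zymogenic cells, and 71.3 in MIST1-null and 139.9 in wild-type neck cells. Both MIST1-null arrays were below both wild-type arrays, by -1.21 in zymogenic and -0.97 in neck cells. Rufy1, an endosomal partner of Rab4, read 82.0 and 194 in MIST1-null and wild-type zymogenic cells, a difference of -1.24, and differed by 0.22 in neck cells. Ric1, part of the exchange factor for Rab6, was higher in MIST1-null cells by 0.88 in zymogenic and 1.20 in neck cells. Evi5, which acts on Rab11, was higher by 1.08 in MIST1-null neck cells and differed by -0.04 in zymogenic cells.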

How the data were processed

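Affymetrix Mouse Gene 1.0ST arrays were used for RNA of laser-captured zymogenic and neck cells, 1 array for each of 4 groups, with RNA pooled over dissections and mice per the labels' protocols. The deposited values are probe set intensities on a linear scale, which the authors made in dChip, per the design text in the labels; how background, probe summary and scaling were handled is not stated there. Medians of the arrays lay between 37.9 and 40.9. No detection calls were used, so signal over background is unknown, and precision is limited by the number of arrays.

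Of 35512 probe sets, 21789 had 1 gene in the platform annotation, 1621 several and 12102 were not listed, and only the first kind was used. Entrez identifiers of all 60 Rab probe sets matched RefSeq genes of GRCm38.p6, with 0 symbols changed. For a gene on several probe sets, the one with the highest mean over the arrays was used. Values under an intensity of 1 were set to 1 before log2 was taken. Differences were counted at 2-fold where the higher value reached a log2 level of 5.45, and all genes were counted the same way. The counting was tested on simulated data with large changes in genes of high intensity and little noise. That setting does not cover differences near the detection level. Analyses ran in Python 3.11.15 with pandas 2.3.3, numpy 2.4.6 and matplotlib 3.10.9.

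Values in all arrays are given for genes at 2-fold, for the 8 Rab genes with the highest mean and for the granule members, and of the regulators those at 2-fold are named. The remaining Rab genes are given by their range, and a few regulators and Rab genes under 2-fold were added after their values were seen. Members, roles and lists were chosen with earlier results of these data known. Alternatives were quantile normalization, median centring, a pseudocount of 32, no filter, the 75th percentile (an intensity of 80.9) as level, 1.5-fold and the mean of the probe sets of a gene; the lowest probe set was added after seeing the data. Protein sequences were not analysed here.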

Additional observations from a re-analysis of the deposited data

Results flagged for a closer look

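Rab genes whose difference had opposite signs in 2 separate pairs of arrays, with 2-fold in one of them and a detectable value in both, are given here, and these differences between differences were not tested. The genotype difference was -0.99 in zymogenic and 1.04 in neck cells for Rab17, apart by -2.03, and -1.08 and 0.81 for Rab27a, apart by -1.90. The same arithmetic makes the cell type difference of MIST1-null minus that of wild-type mice -2.03 for Rab17 and -1.90 for Rab27a. For Rab4a the cell type difference was -1.10 in MIST1-null and 0.02 in wild-type mice, apart by -1.12, and for Rab30 -0.02 and 1.09, apart by -1.10. In Rab4a and Rab30 one of the opposed values is close to 0.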

How the results depend on the processing

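Counts of Rab genes at 2-fold kept within 1.5 times their value under quantile normalization, median centring and the mean of the probe sets, and all 4 medians moved by less than 0.1 under every alternative. With the pseudocount of 32, which shrinks low values, the counts became 0 higher and 1 lower between genotypes in zymogenic cells (1 and 2 as reported), 0 and 0 in neck cells (1 and 2), 1 and 2 between cell types in MIST1-null mice (2 and 5) and 0 and 2 in wild-type mice (3 and 4), where all genes passed at 2.97%, 0.757%, 3.89% and 4.94%. Rab23 in zymogenic cells, Rab38 and the brighter probe set of Rab11b in both cell type comparisons, and Rab39b between cell types in MIST1-null mice remained at 2-fold. With no filter, 2 were higher between genotypes in zymogenic cells, as Rab38 joined from under the level. With the 75th percentile as level, 1 was lower there, 0 were higher and 1 lower in neck cells, and 0 were higher between cell types in wild-type mice. At 1.5-fold, 8 were higher and 8 lower between genotypes in zymogenic cells (16.7% and 15.3% of all genes), 4 and 5 in neck cells (8.8% and 9.97%), 5 and 8 between cell types in MIST1-null mice (14.7% and 12.3%) and 7 and 8 in wild-type mice (17.5% and 17.3%). With the lowest probe set of each gene, 2 were higher between genotypes in zymogenic cells, as Rab11b joined. Rab11b then left both cell type comparisons, at -0.10 in MIST1-null and -0.40 in wild-type mice, where 4 and 3 genes remained lower. With the mean of the probe sets it also left the cell type comparison in MIST1-null mice. No called difference of a named Rab gene changed its sign under quantile normalization. The pseudocount cannot change a sign, and median centring moves all genes of an array alike by a small amount. Neither of these could therefore test the signs. With the pseudocount, 14 called differences of named Rab genes fell under 2-fold. No paired analysis was possible because each group is 1 array. In 17 of the 20 differences counted at 2-fold over the 4 comparisons the lower value was under the detection level, so their size is not firm, and 1 array per group leaves their error unknown.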
